A study of Mus musculus with 10 samples.

Results

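The cytosolic ribosome is built from a large and a small subunit, and its proteins are encoded by genes whose symbols begin with Rpl (large subunit) or Rps (small subunit). Members were the genes that the array's gene table names alone on a probe set and whose symbol follows that naming scheme, and where a gene had several such probe sets the brightest on average was used. The rule gave 58 genes of 19938 tested, 37 of the large and 21 of the small subunit, and used no difference between the groups. The measurements come from 10 mouse embryos at stage E12.5 (CD1/NMRI mixed background), with 1 array per embryo and total RNA from one side of each forebrain, which was cut free of most of the thalamus. The 5 dtg embryos are labelled as transgenic, and the study's design text describes a constitutively active FoxO3 allele driven by the CaMKIIa promoter, which it calls specific to the forebrain. The 5 stg embryos are labelled as controls. The labels do not spell out dtg or stg, and they do not say which transgene, if any, the stg embryos carry. The embryos came from 2 dams that are not assigned to embryos, so the part of the litter in any difference was not tested. All values below are the authors' log2 intensities, and a difference is the dtg mean minus the stg mean on that scale.

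Ribosomal proteins are needed in near-equal amounts, because each ribosome holds essentially 1 copy of most of them, and a rapidly dividing tissue such as the embryonic forebrain makes ribosomes continuously. Transcription of their genes is promoted by Myc proteins, and translation of their mRNAs is governed by the insulin, PI3K and mTOR pathway through a terminal oligopyrimidine (TOP) start, a C followed by a run of pyrimidines at the very 5′ end of the mRNA. FoxO factors are switched off by the same insulin and PI3K signalling. An array measures mRNA level only, so translation through the TOP start was not measured.

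The start regions printed here were picked from the members that carry, at an annotated start, the feature that the members' mRNAs are known for. Each is 10 bases before and 20 bases from the start annotated in RefSeq (GRCm38.p6), so the last 20 are the first transcribed bases as annotated, and capitals mark the initial C with the unbroken pyrimidine run after it. Of the members with the feature, Rps21 and Rps10 of the small subunit and Rpl14 of the large subunit are shown for their small p-values. Rplp2 is shown as a stalk protein, Rpl38 as a further large subunit gene, and Rps6 because its protein is the classical substrate of the S6 kinases. Rpl36a, Rps27l and Rpl23 had smaller p-values than Rpl14 but lacked the run at their annotated starts, as did a second annotated start of Rps21.
Rps21 (chr2:180257369-180257398, plus strand): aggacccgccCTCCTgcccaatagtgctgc
Rps10 (chr17:27635225-27635254, minus strand): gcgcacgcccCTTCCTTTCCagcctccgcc
Rpl14 (chr9:120571507-120571536, plus strand): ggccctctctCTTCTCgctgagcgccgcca
Rplp2 (chr7:141447641-141447670, plus strand): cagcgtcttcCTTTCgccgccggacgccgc
Rpl38 (chr11:114668570-114668599, plus strand): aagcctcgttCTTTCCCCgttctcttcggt
Rps6 (chr4:86857348-86857377, minus strand): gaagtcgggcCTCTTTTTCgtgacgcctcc
A C followed by at least 4 pyrimidines stood exactly at an annotated start in 10 of the 46 members with a start in the table (21.7%), against 813 of 27025 genes (3.01%). The other 36 members with a start lacked it at that exact base, which depends on where RefSeq places the start. The median difference was -0.10 over the 10 members with the run and -0.095 over the 36 without it. All 10 members with the run read lower in dtg forebrains, as did 33 of the 36 without it. The genes shown above spanned that range, with Rps21 at -0.25, Rpl38 at -0.14 and Rps6 at -0.029.

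Array medians lay between 5.36 and 5.39, and precision is set by having 5 arrays per group. The arrays' mean correlation with the others was 0.985 for stg 5 and 0.992 to 0.993 for the other 9. Foxo3 read 6.95, 7.13, 7.10, 6.76 and 6.96 in dtg embryos, against 6.50, 6.61, 6.59, 6.64 and 6.87 in stg embryos. Its difference of 0.34 missed the threshold (adjusted p = 0.218 in limma), and whether its probes cover the transgene is not stated. High Xist was seen in 3 of 5 embryos of each group. Of the forebrain transcription factor genes, Emx2 was measured at 6.90 to 8.08, Six3 at 5.66 to 6.08, and Dlx2 at 5.11 (in stg 5) to 8.32. Nothing in the labels says that embryos of 1 group were independent beyond their own RNA and array. The p-values weigh a difference against the spread between these embryos only, which limma moderates with the spread of all genes.

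No ribosomal protein gene passed the test between the groups, while nearly all of them read slightly lower in dtg forebrains. Of the 58 members 55 had a lower mean in dtg than in stg embryos (94.8%), against 51.9% of all genes. The median difference was -0.096, a level 6.43% lower, where the median over all genes was -0.0038. In limma 0 of 58 members passed an adjusted p of 0.05, where 0.105% of all genes did (0.0401% lower and 0.0652% higher in dtg), and the smallest adjusted p was 0.218. At an unadjusted p below 0.05 there were 5 members, all lower (8.62%), beside 7.58% of all genes in either direction, 3.48% lower and 4.1% higher. The number at an unadjusted p below 0.05 was 1 without stg embryo 5, 1 without dtg embryo 3, 2 without dtg embryo 1, 3 without stg embryo 3 and 12 without dtg embryo 4. The share of all genes was counted only with all embryos, so these numbers have no background beside them.

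**Figure D1:**
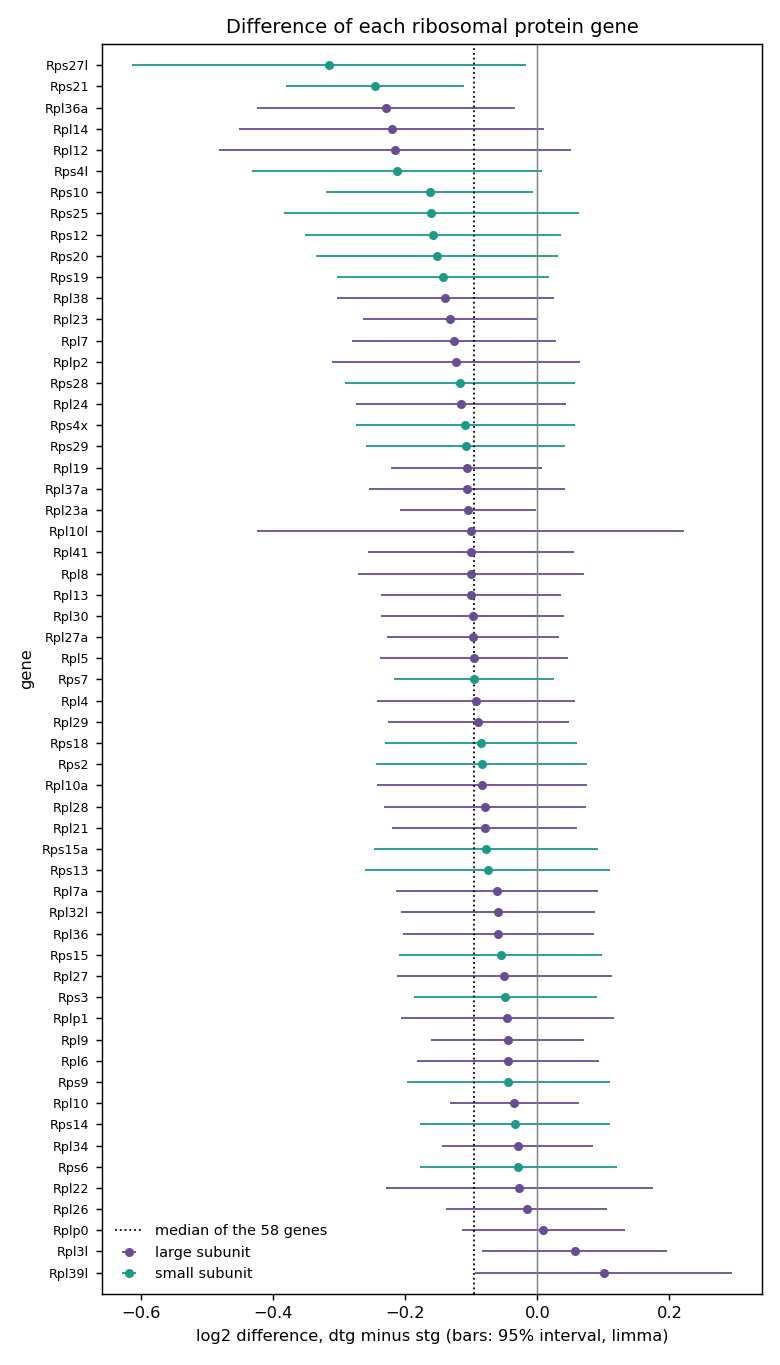
Log2 difference (dtg minus stg, horizontal axis) of each of the 58 ribosomal protein genes with its 95% interval from limma, ordered from the lowest difference at the top; colours mark the subunits and the dotted line the median of -0.096. The estimates of 55 genes lie left of 0, and the intervals of 5 genes exclude 0 before adjustment.

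The differences lay between -0.2 and 0 in 49 members and below -0.2 in 6, and the middle of the distribution ran from -0.12 to -0.052 (quartiles). The members' median within-group SD was 0.11, and the median standard error of a difference was 0.070. Standard errors (SE) and intervals here and below are limma's moderated ones, which draw each gene's variance toward that of all genes. For 57 of the 58 members the 95% interval stayed above -0.5. All 21 small subunit members were lower, with a median of -0.11, and 34 of 37 large subunit members were lower, with a median of -0.093. Of 4 measured ribosomal protein genes outside the naming rule 2 were lower, and Rpsa (0.0027) and Rps3a1 (0.14) were higher. Many members have bright probe sets, and the other 826 genes with a mean log2 of at least 9 had a median of -0.018, with 498 of them lower.

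The embryos of a group were not alike. With each gene set against its own mean over the 10 embryos, the median member stood at -0.10, -0.015, -0.18, 0.058 and -0.0059 in dtg embryos 1 to 5. In stg embryos 1 to 5 it stood at -0.0059, -0.0013, 0.026, 0.037 and 0.17. Embryos dtg 1, dtg 2 and dtg 3 lay below all controls, dtg 2 by little, dtg 4 lay above all controls but stg 5, and stg 5 stood above every other embryo. Embryo dtg 3 held the lowest of the 10 values in 39 of 58 members, and stg 5 held the highest in 40. In dtg 4, 35 members lay above their stg mean. Without stg 5 the median difference was -0.056, and 51 members were lower. Without dtg 3 it was -0.063, again with 51 members lower.

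**Figure D2:**
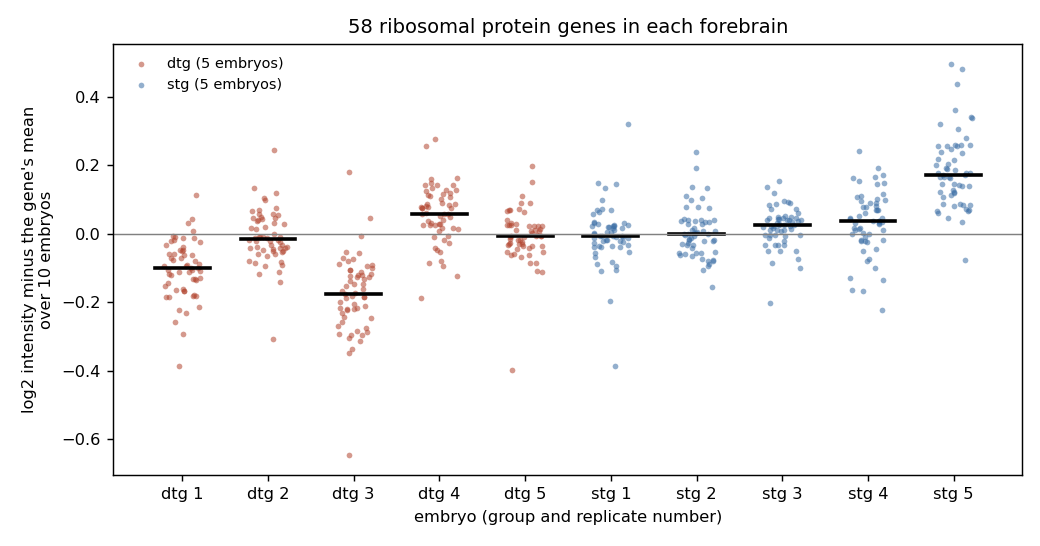
Each point is 1 of the 58 ribosomal protein genes in 1 forebrain, as its log2 intensity minus the gene's mean over 10 embryos (vertical axis); embryos run along the horizontal axis and black bars are medians. Embryos dtg 1 and dtg 3 sit low as a whole (medians -0.10 and -0.18), stg 5 sits high (0.17), and the other 7 lie between -0.015 and 0.058.

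Among small subunit genes Rps21 had the smallest p. Rps21, whose yeast counterpart is needed to mature the small subunit's RNA, read 8.70, 8.72, 8.49, 8.74 and 8.68 in dtg embryos 1 to 5, against 8.85, 8.92, 8.88, 8.87 and 9.04 in stg embryos. Every dtg value lay below every stg value. Its difference was -0.25 ± 0.062 (SE, n = 5 per group), with an unadjusted p of 0.0018 and an adjusted p of 0.218 in limma. The second Rps21 probe set gave -0.24, but there the groups overlapped. Without dtg 3, which was the lowest embryo, the Rps21 difference was -0.20, and without stg 5 it was -0.22.

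Complete separation of the groups occurred in 2 members, Rps21 and Rpl23a, both with dtg below stg (3.45%, against 0.622% of all genes), and in 0 members did dtg lie above stg throughout (0.978% of all genes). Rpl23a sits at the mouth of the exit tunnel of the large subunit, where factors that handle the emerging protein chain dock. It read 10.19, 10.18, 10.09, 10.16 and 10.18 in dtg embryos, against 10.20, 10.32, 10.25, 10.25 and 10.30 in stg embryos. The nearest values of the groups, in dtg 1 and stg 1, differed by less than the within-group SD of 0.043. The Rpl23a difference was -0.11 ± 0.047 (moderated SE, adjusted p = 0.649 in limma). This SE draws on the variance of all genes and is larger than the spread of the Rpl23a values alone would give. Of the 11 Rpl23a probe sets with distinct values all were lower in dtg and 6 separated the groups. Rpl19, another protein of that region, had 4 of 7 probe sets that separated the groups, though not the brightest one, which gave -0.11 (adjusted p = 0.691 in limma). Rpl4, which lines the tunnel, gave -0.093, and Rpl26, at the tunnel mouth, gave -0.016.

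**Figure D3:**
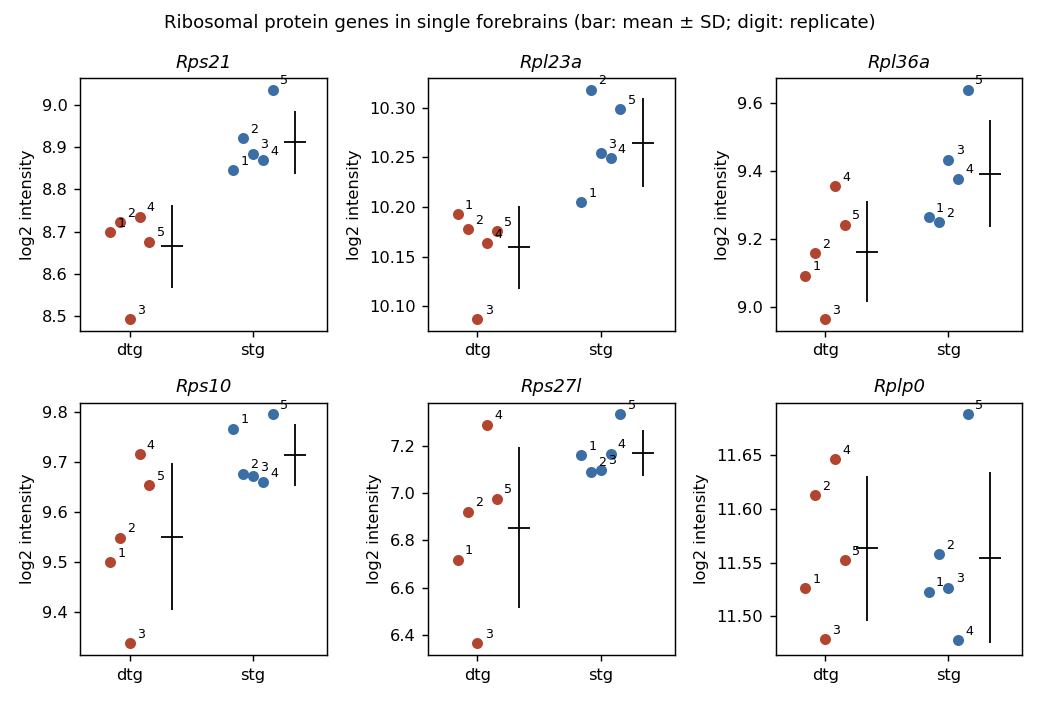
Log2 intensity (vertical axes, each with its own range) of 6 ribosomal protein genes in single dtg and stg forebrains; digits are replicate numbers, and black bars are the mean ± SD of 5 embryos. Rps21 and Rpl23a show no overlap between the groups, Rpl36a, Rps10 and Rps27l overlap through dtg 4, and in Rplp0 the group means lie 0.0086 apart.

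Rpl36a, an X-linked gene whose protein lies at the tRNA exit site, had the largest difference among large subunit genes. Its values were 9.09, 9.16, 8.97, 9.36 and 9.24 in dtg embryos, against 9.26, 9.25, 9.43, 9.38 and 9.64 in stg embryos. Embryo dtg 4 lay inside the control range, and stg 5 was the highest of all. The difference was -0.23 ± 0.090 (SE; adjusted p = 0.589 in limma), and its other probe set gave -0.19. Rpl14 read 7.38, 7.52, 7.42, 7.61 and 7.51 in dtg embryos, against 7.59, 7.44, 7.63, 7.79 and 8.10 in stg embryos. The groups overlapped in Rpl14, whose difference was -0.22 ± 0.11 (SE; adjusted p = 0.676 in limma) and -0.12 without stg 5. Rpl12, which forms the base on which the stalk stands, was among the 3 members with the widest spread, with an SD of 0.22. It read 6.28, 6.23, 6.25, 6.70 and 6.69 in dtg embryos, against 6.69, 6.54, 6.54, 6.50 and 6.98 in stg embryos, so 3 dtg embryos lay below all controls and 2 within their range (difference -0.22, adjusted p = 0.753 in limma, and -0.13 without stg 5).

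Rps10, near the mRNA entry of the small subunit and mutated in the human disorder Diamond-Blackfan anaemia, read 9.50, 9.55, 9.34, 9.72 and 9.65 in dtg embryos, against 9.77, 9.68, 9.67, 9.66 and 9.80 in stg embryos. Only dtg 4 entered the control range, and the difference was -0.16 ± 0.072 (SE; adjusted p = 0.639 in limma). All 8 measured genes of the human anaemia list were lower in dtg, with a median of -0.10 and 0 called. Among them Rps19, the gene most often mutated in that disorder, gave -0.14 and Rps7 gave -0.096. The median of this list was -0.065 without dtg 3. Rps19 read 7.18, 7.03, 7.05, 6.95 and 7.13 in dtg embryos, against 7.21, 7.38, 7.18, 7.003 and 7.28 in stg embryos, and here dtg 4, not dtg 3, was the lowest embryo. The list drawn up for mRNA entry and decoding held 4 measured genes, and all 4 were lower. Rps2 gave -0.085, Rps15 -0.056 and Rps3 -0.049. The remaining gene, Rps12, gave -0.16 but is not known as a protein of the decoding centre, so the list's median does not describe that site alone. Without dtg 3 the values were nearer 0, with Rps12 at -0.093, Rps2 at -0.041 and Rps15 at -0.0019. The median of the list, with Rps12 in it, was then -0.035, against -0.070 with all embryos. Rps12 read 10.16, 10.29, 9.99, 10.44 and 10.36 in dtg embryos, against 10.33, 10.28, 10.46, 10.36 and 10.58 in stg embryos, with dtg 3 lowest, stg 5 highest and the groups overlapping. Rps25 and Rps20 of the small subunit gave -0.16 and -0.15 (adjusted p = 0.788 and 0.742 in limma).

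Rpl5 carries the 5S rRNA into the large subunit and, like Rpl23, binds the p53 regulator Mdm2 when ribosome assembly is disturbed. Rpl23 read 10.38, 10.53, 10.37, 10.56 and 10.55 in dtg embryos, against 10.57, 10.58, 10.61, 10.55 and 10.73 in stg embryos. The groups overlapped only where dtg 4 and dtg 5 reached the level of stg 4, and the difference was -0.13 ± 0.061 (SE; adjusted p = 0.662 in limma). A second Rpl23 probe set gave -0.025. Rpl5 gave -0.096 (adjusted p = 0.802 in limma), and -0.057 without dtg 3, and dtg 4 held its highest value of all 10 embryos. Rpl5 read 10.79, 10.88, 10.70, 11.02 and 10.89 in dtg embryos, against 10.90, 10.87, 10.996, 11.01 and 10.97 in stg embryos.

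The stalk of the large subunit, which recruits elongation factors, is made of Rplp0 with Rplp1 and Rplp2 bound to it. Rplp0 was at nearly the same level in both groups, with 11.53, 11.61, 11.48, 11.65 and 11.55 in dtg embryos, against 11.52, 11.56, 11.53, 11.48 and 11.69 in stg embryos. Its difference was 0.0086 (95% interval -0.12 to 0.13), the sign changed with the scaling (-0.0043 with median centring), and Rplp0 was the only member whose probe sets differed in sign, the other giving -0.067. Rplp1 gave -0.046 (0.013 without stg 5) and Rplp2 gave -0.12, neither near the threshold (adjusted p = 0.928 and 0.809 in limma). Rplp2 read 6.75, 6.71, 6.55, 6.78 and 6.72 in dtg embryos, against 6.79, 6.84, 6.80, 6.60 and 7.11 in stg embryos, so dtg 3 was the lowest and stg 5 the highest embryo, without which the difference was -0.053. Rplp1 read 11.33, 11.40, 11.25, 11.36 and 11.26 in dtg embryos, against 11.32, 11.35, 11.38, 11.18 and 11.60 in stg embryos, and its lowest value was in a control, stg 4.

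Some ribosomal protein genes have a second copy, in some cases with restricted expression, and these copies held the largest difference and 2 of the 3 positive ones. Rps27l, a relative of Rps27 that p53 induces in human cells, had the lowest difference of all members, at -0.32 ± 0.14 (SE; adjusted p = 0.63 in limma). Its values were 6.72, 6.92, 6.37, 7.29 and 6.98 in dtg embryos, against 7.16, 7.09, 7.10, 7.17 and 7.33 in stg embryos. The dtg embryos were far more spread than the controls, dtg 4 lay inside the control range, and without dtg 3 the difference was -0.19. Rps4l read 6.06, 6.52, 6.17, 6.48 and 6.47 in dtg embryos, against 6.77, 6.43, 6.46, 6.52 and 6.59 in stg embryos, a difference of -0.21 (adjusted p = 0.671 in limma). Its X-linked relative Rps4x gave -0.11. Rps4x read 9.94, 10.01, 9.87, 10.11 and 10.06 in dtg embryos, against 10.07, 9.94, 10.14, 10.04 and 10.33 in stg embryos, with overlap in both directions and a difference of -0.053 without stg 5.

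Copies known from adult muscle and testis showed differences near or within their spread. Rpl39l, a testis copy of Rpl39, read 2.83, 3.15, 3.20, 2.94 and 3.21 in dtg embryos, against 2.93, 3.13, 2.92, 2.79 and 3.06 in stg embryos. Rpl3l, a muscle copy of Rpl3, read 3.60 to 3.76 in dtg embryos, against 3.46 to 3.77 in stg embryos. Their differences of 0.10 and 0.056 did not pass (adjusted p = 0.858 and 0.893 in limma). With Rplp0 they were the only members with a higher dtg mean, and no measure of background came with the table to show whether Rpl39l and Rpl3l were detected. Rpl10l, a testis copy, had the widest spread of all members (SD 0.27) and gave -0.10 (0.0066 without stg 5 and -0.21 without stg 1), while its X-linked parent Rpl10, which is needed for joining the subunits, had a spread of 0.032 and gave -0.035. Rpl22 gave -0.027, Rpl7 gave -0.13 and Rpl7l1, a relative of Rpl7 outside the naming rule, gave -0.14 (adjusted p = 0.627 in limma).

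The other probe sets bear on these values because ribosomal protein genes have many near-identical processed pseudogenes, and a probe set can collect signal from several copies. The 58 members had 210 single-gene probe sets, of which 198 held distinct values, and 38 members had more than 1. Of the distinct ones 195 read lower in dtg. Within a member the differences spanned at most 0.14, with a median span of 0.044. The widest was in Rps9, whose brightest probe set gave -0.044 and whose other gave -0.18, followed by Rpl23 with a span of 0.11. A further 233 probe sets named a ribosomal protein together with other symbols. They were not assigned to a gene, and all 233 were lower, with a median of -0.091. Rows with identical values were not removed from the 233, and the share of all probe sets lower in dtg was not counted. Probe sets of 1 gene may share their target RNA and were not counted as replicates. Of 80 coding genes in RefSeq that follow the naming rule, 23 had no probe set of their own, among them Rpl11, Rpl3, Rps27 and Rps27a. Outside the rule 4 genes were measured, with a median of -0.019. Fau gave -0.040, Rps3a1 gave 0.14 and Rpsa, named after its value was seen, gave 0.0027, and all missed the threshold.

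**Figure D4:**
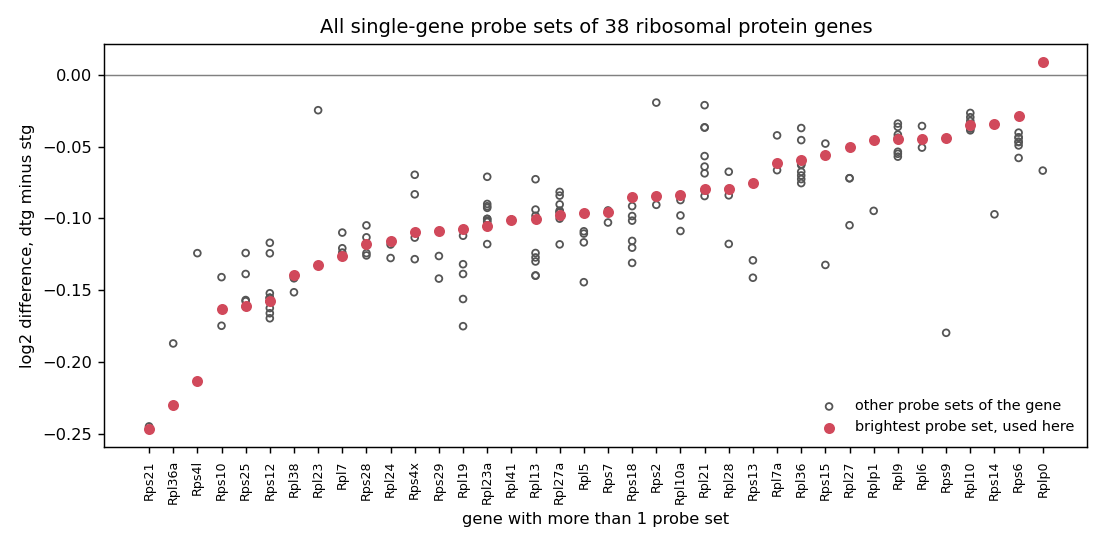
Log2 difference (dtg minus stg, vertical axis) of every single-gene probe set of the 38 ribosomal protein genes with more than 1; filled red points are the brightest probe set used for the gene, open circles the others. The points of 1 gene span at most 0.14, the distance in Rps9, and only the filled point of Rplp0, at 0.0086, is above 0.

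Of the lists of genes that act with ribosomal proteins, or in the separate mitochondrial ribosome, 0 genes passed. Of 23 ribosome biogenesis genes 22 were lower, with a median of -0.12, and those with the smallest p were the pseudouridine synthase gene Dkc1 at -0.28, Npm1 at -0.22 and the rRNA methyltransferase gene Fbl at -0.16 (adjusted p = 0.649, 0.696 and 0.712 in limma). Of 14 genes for RNA polymerase I, which transcribes ribosomal RNA, and its factors 11 were lower, with a median of -0.066, and Polr1c gave -0.20 (adjusted p = 0.432 in limma), Polr1b -0.16 (-0.077 without stg 5) and Polr1e -0.092. Mitochondrial ribosomal proteins, which belong to a separate ribosome, were lower in 61 of 77 genes with a median of -0.046. Mrpl51 gave -0.21 and Mrps35 -0.17, and Mrpl54 was higher by 0.17 (adjusted p = 0.565, 0.60 and 0.503 in limma). Mrpl42, named here after its value was seen, had a larger difference of -0.49 (adjusted p = 0.637 in limma). These medians moved with single embryos. Ribosome biogenesis stood at -0.074 without dtg 1 and -0.075 without stg 5, the RNA polymerase I list at -0.034 without dtg 1 and -0.027 without stg 5, and the mitochondrial list at -0.030 without dtg 3 and -0.073 without stg 3.

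Of 16 translation factors and associated genes with known TOP mRNAs 12 were lower, with a median of -0.032 (-0.055 without dtg 4 to -0.019 without dtg 3). Naca, a subunit of the complex that docks next to Rpl23a at the tunnel exit, read 9.52, 9.46, 9.42, 9.62 and 9.52 in dtg embryos, against 9.63, 9.73, 9.73, 9.81 and 9.82 in stg embryos. The Naca values of the groups did not overlap, and its difference was -0.24 ± 0.058 (SE; adjusted p = 0.207 in limma). The next in that list were Eef1d at -0.10 and Eif4b at -0.089, neither near the threshold. Among 18 regulators of ribosome synthesis 7 were lower and 11 higher, with a median of 0.021 (-0.0015 without stg 5). The list mixes activators, such as Myc, with inhibitors, such as Tsc1, so its counts and median describe no single direction of regulation. Myc read 5.96, 5.78, 6.11, 5.69 and 5.84 in dtg embryos, against 6.15, 6.42, 6.21, 6.09 and 6.32 in stg embryos, and only dtg 3, at 6.11, reached above the lowest control. The Myc difference was -0.36 ± 0.088 (SE; adjusted p = 0.206 in limma). Mycl was higher by 0.38 and the mTOR inhibitor Tsc1 by 0.24, both also short of the threshold (adjusted p = 0.397 and 0.43 in limma). In the opposite direction, and named after their values were seen, Mycn gave -0.32 and the mTOR activator Rheb gave -0.30 (adjusted p = 0.466 and 0.437 in limma).

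Markers of other cell types and of division stood apart in some of the same embryos, and 0 of them passed the test. All 14 pan-neuronal markers were higher in dtg, with list means of 8.54 to 9.12 in dtg embryos, against 7.57 to 8.85 in stg embryos. Against its mean over all embryos the median neuronal marker stood at 0.41 in dtg 1 and 0.44 in dtg 3, and at -1.04 in stg 5. It stood at -0.12 in dtg 2, -0.12 in dtg 4 and 0.26 in dtg 5, and at 0.10, 0.040, -0.11 and 0.15 in stg 1 to 4. The median difference of this list was 0.35, and 0.12 without stg 5. The 7 markers of G2/M phase were all lower in dtg, with list means of 8.22 to 8.69 in dtg embryos, against 8.60 to 8.81 in stg embryos, and stood lowest in dtg 1 (-0.42) and dtg 3 (-0.27) and highest in stg 5 (0.23). Their median difference was -0.21, and -0.13 without dtg 1. Erythroid markers (6 of 6 lower) had list means of 7.14 to 8.13 in dtg embryos, against 7.14 to 8.61 in stg embryos, and mesenchyme markers (5 of 8 lower) had 6.80 to 7.58 in dtg embryos, against 6.49 to 8.64 in stg embryos. Both of these lists were highest in stg 5, without which the erythroid median difference was -0.042, against -0.23 with all embryos, and the mesenchyme one 0.31, against -0.019. The thalamus list (7 of 8 higher) had means of 7.46 to 8.27 in dtg embryos, against 6.53 to 7.77 in stg embryos. Its median difference of 0.87 was the largest of the marker lists, and ran from 0.70 to 1.02 over the fits without 1 embryo. At an unadjusted p below 0.05 in limma 6 of its 8 genes were higher, beside 4.1% of all genes. The lowest single value among these 5 lists was 3.97, and no measure of background came with the table to show which markers were detected. Radial glia (6 of 11 lower), endothelial (4 of 6 lower) and microglia markers (0 of 5 lower) had medians of -0.0059, -0.071 and 0.061. Leaving out 1 embryo turned the first 2 directions, with radial glia between -0.059 and 0.021 and endothelial markers between -0.14 and 0.037, and microglia ran from 0.031 to 0.098. The part of these markers in the ribosomal protein differences was not tested. In RNA from whole tissue, fewer cells of a type and less RNA per cell cannot be told apart.

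**Figure D5:**
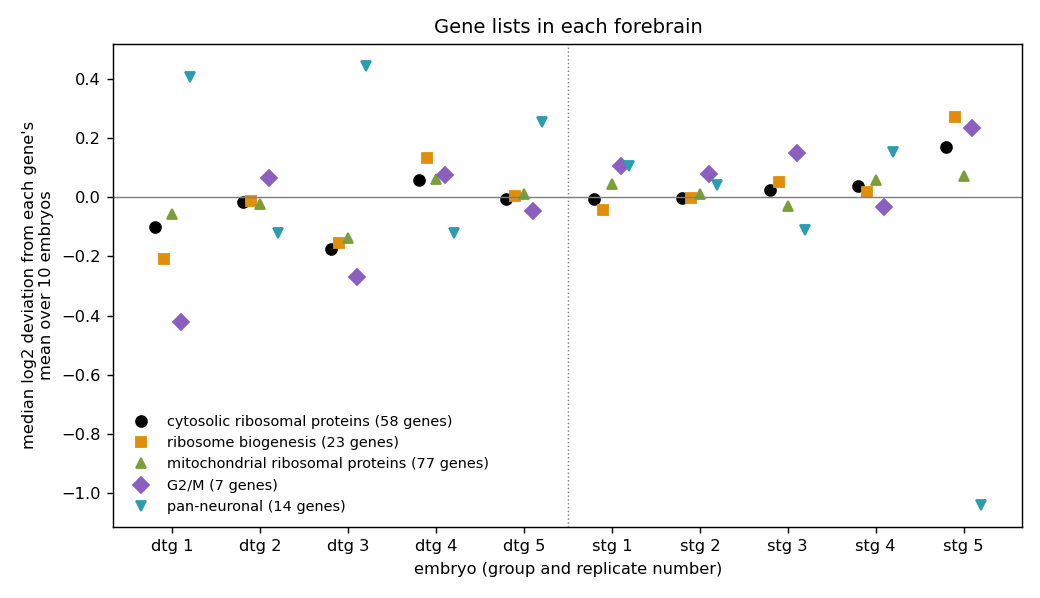
Median log2 deviation of 5 gene lists from each gene's mean over 10 embryos (vertical axis) in each dtg and stg forebrain (horizontal axis). Ribosomal proteins, ribosome biogenesis and G2/M genes are low in dtg 1 and dtg 3 and high in stg 5, where the pan-neuronal list takes the opposite values of 0.41, 0.44 and -1.04. In dtg 2 (-0.12) and stg 4 (0.15) the pan-neuronal list has the same sign as the ribosomal proteins (-0.015 and 0.037).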

How the data were processed

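RNA from forebrains of 5 dtg and 5 stg embryos was labelled with biotin by a whole-transcript sense-target assay, per the labels' protocols. The deposited table holds log2 intensities of 35556 probe sets, which the authors produced; the submitters' processing notes name Affymetrix Expression Console, and its version, algorithm and settings are not given in the sources used here. Array medians were near equal, and no further normalization was applied. The platform's gene table, updated by gene identifier through RefSeq (GRCm38.p6; 19856 genes matched), named 1 gene on 21789 probe sets, several on 1621 and none on 12146. Each of 19938 genes was represented by its probe set with the highest mean.

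The comparison was a two-sided empirical Bayes fit in limma 3.58.1 (R 4.3.3) with group as its only term, Benjamini-Hochberg adjustment across every gene and a threshold of 0.05. On simulated data for this comparison, with 200 of 19938 genes changed in each of 3 runs, 98% of log2 changes of 1 and 77% of changes of 0.5 were recovered. Changes between -0.2 and 0, the size seen in 49 of the 58 members, were not simulated, so recovery at that size is unknown. Each simulated gene varied independently of the others. Lists are described by counts and medians without a test. Members, lists and the rule for named genes (smallest p in each direction, largest differences and spreads, stalk, paralogs, 5S and Mdm2 proteins, 3 genes per further list) were chosen with earlier results of these data known. The bright-gene comparison, Emx2, Six3, Dlx2, Rps20, Rps25 and the choice of printed start regions were added after the values were seen. Alternatives were the replicate block, each embryo left out, 2 normalizations, a filter on dim genes, the mean of all probe sets, other variance models, sex, a looser threshold and a wider member list.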

Additional observations from a re-analysis of the deposited data

Results flagged for a closer look

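Single embryos lay far from the other 4 of their group in 12 of 144 groups checked, and 8 of these 12 were stg 5. The cutoff flags about 5% of independent groups by chance. These groups were not independent, as lists share genes, all rest on the same 10 embryos, and named genes were picked partly by p and spread. The count therefore cannot show an excess over 5%. Among members, dtg 3 was the lowest embryo for Rps21 (8.49, the others 8.68 to 8.74), for Rpl23a (10.09, the others 10.16 to 10.19) and for Rplp2 (6.55, the others 6.71 to 6.78). Outside the members, dtg 1 was lowest for Eef1d (6.95), and stg 5 was highest for Eif4b (8.86) and Rpl7l1 (8.70).

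The same held for list values, given as the median deviation from each gene's mean over 10 embryos. Embryo stg 5 was highest for the 58 ribosomal proteins (0.17, the other controls -0.0059 to 0.037), for the large subunit (0.166) and the small subunit (0.19). It was also highest for the ribosomal proteins outside the naming rule (0.20) and for the mRNA entry and decoding list with Rps12 in it (0.16). It was lowest for the pan-neuronal markers (-1.04, the other controls -0.11 to 0.15).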

How the results depend on the processing

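No member passed an adjusted p of 0.05 in any alternative run, and the smallest adjusted p of the 27 members followed singly was 0.165. The number of members lower in dtg ran from 51 to 56 and their median difference from -0.11 to -0.056 over the fits without 1 embryo; the median was -0.078 with quantile normalization, -0.11 with median centring and -0.094 with the wider member list. Members at an unadjusted p below 0.05 numbered 1 to 12 over the fits without 1 embryo, 9 with median centring and 3 with sex as a covariate. Members without overlap numbered 2 to 6 without 1 embryo and 1 with quantile normalization. Leaving out an embryo cannot undo a separation, so the range of 2 to 6 could not start below the 2 found with all embryos. Neither for these nor for the members at an unadjusted p below 0.05 was the share of all genes counted in the alternative runs. Over all genes 21 were called, and 7 to 58 without 1 embryo, 39 with array weights and 55 at an adjusted p below 0.1; the cause was not tested. With the replicate number as a block 2 genes were called and 7 members had an unadjusted p below 0.05; the numbers pair nothing in the labels, and 0 of 5 dtg embryos matched best the control of their own number (correlations -0.246 to 0.238). Of the 27 members, 4 changed sign: Rpl22 at 0.014 without dtg 1 and 0.011 without stg 5, Rpl10l, at -0.10 with all embryos, at 0.0066 and Rplp1 at 0.013 without stg 5, and Rplp0 at -0.0038 without dtg 2, -0.012 without dtg 4, -0.011 without stg 4, -0.0043 with median centring and -0.029 with all probe sets averaged. Over the fits without 1 embryo Rpl22 ran from -0.094 to 0.014, Rpl10l from -0.21 to 0.0066, Rplp1 from -0.093 to 0.013 and Rplp0 from -0.012 to 0.042. Signal over background is not given in the table, which limits the dim copies.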
